A study of Mus musculus with 18 samples.

Results

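The cytosolic ribosomal protein genes are 76 of the 57010 rows of the count table: every row whose symbol is Rpl or Rps followed by a number, with an optional a or x, together with Rplp0, Rplp1, Rplp2 and Rpsa. Of these members, 46 encode proteins of the large ribosomal subunit and 30 proteins of the small subunit. All 76 passed the filter on low counts and are among the 15528 genes tested. The rule used names alone and no measured value. It leaves out Rps3a1, Fau and Rack1, which also encode ribosomal proteins, and these are given separately.

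RNA was sequenced from cells of the brain of male wild-type (WT) mice that were labelled microglia/macrophages and taken on day 3. They were isolated by removing Ly6G-positive cells (neutrophils) with magnetic beads and then keeping the CD11b-positive cells, and libraries were made with the SMART-Seq v4 PLUS kit. The 6 groups of 3 libraries were young mice (2 to 4 months) given vehicle or bexarotene, aged mice (18 to 20 months) given vehicle or bexarotene, and aged mice with stroke by MCAo (occlusion of the middle cerebral artery) given vehicle or bexarotene. Bexarotene activates the retinoid X receptor. It was injected into the peritoneum at 5 mg/kg, the first dose 24 hours after surgery and 1 dose a day for 2 more days, and vehicle was 3% DMSO in saline. The sources used here do not say what surgery the mice without stroke had, or whether a library pools animals. No young mice had stroke, so stroke was compared within aged mice only. The labels call the libraries of a group biological replicates, and the p-values measure the spread between them.

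A ribosome is built from a small subunit, which holds the mRNA and checks the match between codon and transfer RNA, and a large subunit, which joins amino acids and releases the growing chain through a tunnel. Each ribosome normally carries 1 copy of nearly every ribosomal protein, so cells make these proteins in matched amounts. Most of their mRNAs begin with a C followed by an unbroken run of pyrimidines, the terminal oligopyrimidine tract or TOP, through which the kinase complex mTORC1 and the RNA-binding protein Larp1 tie their translation to nutrients and growth signals. Cells raise ribosome production when they grow, divide or are activated. The measurements here are of mRNA levels, not of ribosomes or of translation.

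Start sites are shown for 8 members because the tract is the sequence feature that the family is known for, and because the members differ in it. RefSeq (GRCm38.p6) gave a promoter window for 56 of the 76 members. Each line holds 26 bases before the annotated start and 20 bases from the start on, 5′ to 3′ on the gene's strand, and capitals mark a run of at least 6 C or T that spans the start or reaches within 5 bases of it.
Rps6: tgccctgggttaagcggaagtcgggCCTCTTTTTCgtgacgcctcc
Rplp2: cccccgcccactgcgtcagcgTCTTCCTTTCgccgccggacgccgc
Rpl35: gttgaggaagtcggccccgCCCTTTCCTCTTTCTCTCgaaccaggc
Rpl38: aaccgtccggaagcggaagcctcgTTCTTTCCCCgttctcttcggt
Rpl4: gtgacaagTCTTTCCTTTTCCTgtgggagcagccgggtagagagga
Rpl37: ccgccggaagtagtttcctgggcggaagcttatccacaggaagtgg
Rpl41: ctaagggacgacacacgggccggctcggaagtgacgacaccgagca
Rpsa: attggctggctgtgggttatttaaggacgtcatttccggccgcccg
These windows are chr4:86857348-86857393 (minus strand, Rps6), chr7:141447625-141447670 (plus, Rplp2), chr2:39005112-39005157 (minus, Rpl35), chr11:114668554-114668599 (plus, Rpl38), chr9:64173361-64173406 (plus, Rpl4), chr15:5116587-5116632 (plus, Rpl37), chr10:128549149-128549194 (minus, Rpl41) and chr9:120127740-120127785 (plus, Rpsa). Such a run, counted here as a run at the start, was present in 29 of the 56 members (51.8%), against 24.3% of the 10260 tested genes with a window and 23.0% of all 27025 genes in the table. In Rps6, Rplp2, Rpl35 and Rpl38 the run spans the annotated start, in Rpl4 it lies wholly before the start, and Rpl37, Rpl41 and Rpsa have none there. An annotated start can lie a few bases from the start that cells use, so a missing run says only that these letters are not at this position.

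Over the whole 300-base windows, searched on both strands, CTTTCC was found in 29 of the 56 members (51.8%, against 30.7% of tested genes) and CCGGAAG in 23 (41.1%, against 20.0%). CTTTCC can be part of the pyrimidine run, as in Rpl35, Rpl38 and Rpl4, so the features overlap. TATAAA was found in 6 (10.7%, against 9.13%). These matches describe the windows and are not binding sites.

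Library totals were 7582511 to 11852638 counts without stroke and 16206144 to 29359943 with stroke, 1.83-fold (vehicle) and 2.21-fold (bexarotene) deeper on average. A floor of 3 counts corresponded to at most 0.396 CPM, the counts scaled to 1000000 per library. The 10 microglial markers, among them P2ry12, Tmem119, Cx3cr1, Sall1, Siglech, Gpr34 and Csf1r, were at 0 in no group, and their summed level was 55451 to 66353 CPM in young vehicle libraries. Neuronal markers summed to 2.86 to 6.19 CPM in all 18 libraries. The number of cells behind a library is not given, and in such bulk samples fewer cells of a type and less RNA per cell cannot be told apart.

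Together the members took only 0.274% to 0.927% of all counts of a library. Their share was 0.274, 0.313 and 0.337% in the young vehicle libraries and 0.321, 0.316 and 0.323% in young bexarotene. It was 0.394, 0.431 and 0.400% in aged vehicle and 0.389, 0.419 and 0.360% in aged bexarotene, so that every aged library lay above every young one. With stroke it was 0.777, 0.841 and 0.887% under vehicle and 0.924, 0.927 and 0.871% under bexarotene, and every stroke library lay above every library without stroke. The mean share was 0.308% ± 0.0321 (SD, n = 3) in young vehicle and 0.409% ± 0.0199 in aged vehicle, a ratio of 1.33, and the ratio of aged to young under bexarotene was 1.22. Stroke went with a ratio of 2.04 under vehicle and 2.33 under bexarotene. No test is given for these sums, because the set was proposed with earlier results of these data known.

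**Figure D1:**
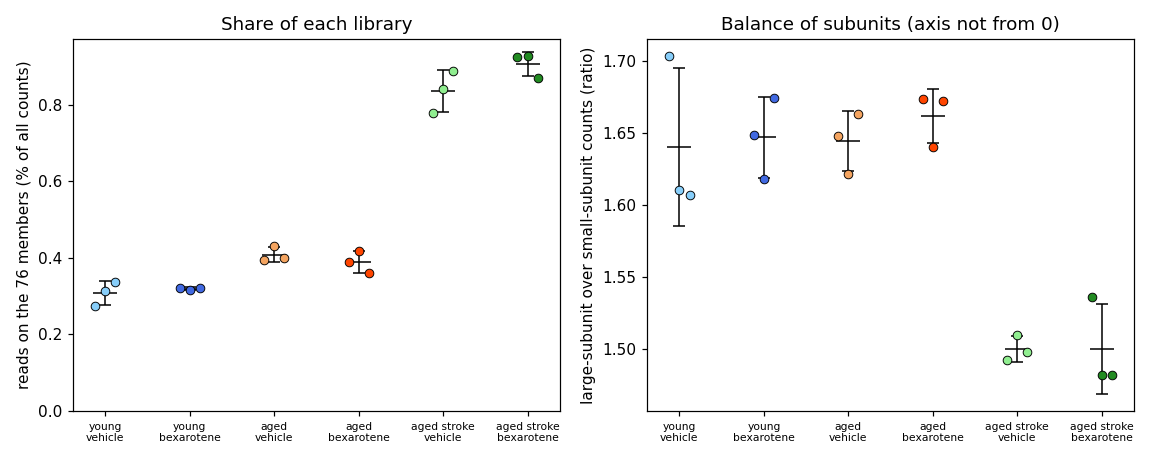
Left, the percent of all counts that fell on the 76 members, and right, the ratio of large-subunit to small-subunit counts (axis not from 0), for each of the 18 libraries, with the mean and SD of each group of 3. The share lies at 0.274% to 0.337% in young vehicle and at 0.777% to 0.887% in aged stroke vehicle libraries, and the ratio is lower in all 6 stroke libraries than in the 12 others.

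Rows named as pseudogenes of ribosomal proteins, which can take reads from near-identical members, numbered 300, and 250 of them had a count. They took 0.0844% to 0.311% of the counts and moved in nearly the same ratios as the members: 1.35 and 1.19 with age (vehicle and bexarotene) and 2.13 and 2.49 with stroke. The sources used here do not say how the authors' counting divided reads between a gene and its copies. The level of a single member with copies is therefore uncertain. Only rows with -ps in their symbol were counted, so a member without such a row can still have copies under other names. A split of the members by such rows is given as a description and cannot show how copies bear on the changes. In aged against young vehicle the median log2 fold change was 0.40 for the 17 members without such a row and 0.41 for the 59 with one, and 1 of the 17 and 12 of the 59 were called. In stroke against no stroke under vehicle the medians were 1.18 and 1.15, with 16 of 17 and 59 of 59 called. Over all genes tested, 1.26% were called higher with age and 27.2% with stroke, each under vehicle.

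Members differed widely in the level counted. How reads of near-identical copies were assigned is not stated, so differences in assigned reads need not equal those of the mRNAs. Per kilobase of transcript, and as the mean over 18 libraries, the highest were Rpl13 (305 CPM per kb), Rps9 (232) and Rpl10 (215), and the lowest were Rpl13a (4.24), Rps21 (4.46) and Rps10 (8.02). The median member stood at 75.3 CPM per kb. The span between the highest and the lowest was 71.8-fold. Rps21, a small protein of the small subunit, had 510 reads over all 18 libraries, and Rps10, which sits near the mRNA entry, had 1072. Transcript lengths come from an annotation of an earlier build, and for Rps20 the only coding model is 3706 bases long, so its value per kilobase is a low estimate.

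The comparison of age groups asks how these genes differ between young and aged cells, and the values lay mostly above 0 by a small amount. Under vehicle 13 of 76 passed the test and were higher in aged mice, and 0 were lower, where the background over all genes tested was 1.26% higher and 0.438% lower. The median log2 fold change of the 76 was 0.40, a 1.32-fold difference, against -0.01 over all genes tested, and 75 of 76 values were positive. In 60 members every aged library lay above every young library, a pattern found in 9.69% of all genes. The value of the members between the quartiles was 0.34 to 0.49, and none reached 2-fold. Calls are from edgeR's quasi-likelihood test with Benjamini-Hochberg adjustment at 0.05 over the 15528 genes, and log2 fold changes carry a standard error (SE).

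Rpl22, a protein of the outer surface of the large subunit near the tunnel exit and dispensable for most translation, had the lowest p. Its level was 9.54, 12.7 and 12.6 CPM in young vehicle libraries and 17.8, 21.9 and 20.7 CPM in aged vehicle libraries, without overlap. The log2 fold change was 0.80 (SE 0.13, adjusted p = 0.00152). Rpl37, a zinc-binding protein of the large subunit, had 20.9, 22.8 and 27.2 CPM in young and 36.0, 37.9 and 38.0 CPM in aged vehicle libraries, again without overlap, with a log2 fold change of 0.66 (SE 0.11, adjusted p = 0.00224). Rpl32, also of the large subunit, rose from 36.7, 39.0 and 41.3 CPM to 54.4, 68.3 and 62.4 CPM, with a log2 fold change of 0.66 (SE 0.12, adjusted p = 0.0042). The young library numbered 1 was the lowest of its group for all 3 genes.

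The next members by p were Rpl9 (0.47, SE 0.09), a protein of the large subunit near the site where factors bind, and Rps27 (0.57, SE 0.11), a zinc-finger protein of the small subunit, given as log2 fold changes. Rps7, Rpl13, Rps19, Rpl39, Rpl36a and Rps25 were also among those that passed. Of the 13, 8 belong to the large and 5 to the small subunit, and the median log2 fold change was 0.40 over all 46 large-subunit and 0.42 over all 30 small-subunit members. Members with the lowest values were Rps10 (-0.08, SE 0.27), Rpl18 (0.06, SE 0.12) and Rpl8 (0.10, SE 0.11), and none of these passed.

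By role, the acidic stalk and its base (Rplp0, Rplp1, Rplp2 and Rpl12), which recruit elongation factors, had 0 of 4 called and a median of 0.40. Rpl5 and Rpl11, which bind the smallest RNA of the large subunit and outside the ribosome bind Mdm2, had 0 of 2 called and values of 0.26 and 0.23. Around the exit tunnel 2 of 10 were called (Rpl22 and Rpl39), with a median of 0.45. Along the mRNA path of the small subunit 0 of 8 were called, with a median of 0.40. Of the 20 members known as genes of Diamond-Blackfan anaemia, an inherited failure of red cell production, 4 were called (Rps7, Rps19, Rps27 and Rpl9). Of the 4 members on the X chromosome, present as a single copy in male cells, Rpl39 and Rpl36a were called and Rpl10 and Rps4x were not. Over the whole set 13 of 76 (17.1%) were called higher, against 1.26% of all genes tested. The counts by role are too small to set any role apart from the set.

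Abundant members that are used as reference genes or markers of ribosome signalling did not pass. Rplp0, the stalk protein often used as a reference in PCR, had 117, 153 and 143 CPM in young vehicle and 153, 188 and 188 CPM in aged vehicle libraries, the closest at 152.5 and 153.0 CPM, with a log2 fold change of 0.36 (SE 0.12, adjusted p = 0.161). Rps6, the substrate of S6 kinase, had 83.4, 113 and 111 CPM and 126, 152 and 142 CPM, with a log2 fold change of 0.45 (SE 0.12, adjusted p = 0.0599). Rpl10, which completes the peptidyl transferase region late in assembly, had 93.2, 106 and 107 CPM and 127, 136 and 131 CPM, with a log2 fold change of 0.36 (SE 0.10, adjusted p = 0.0849). For each of these genes the groups were separate, though barely for Rplp0.

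**Figure D2:**
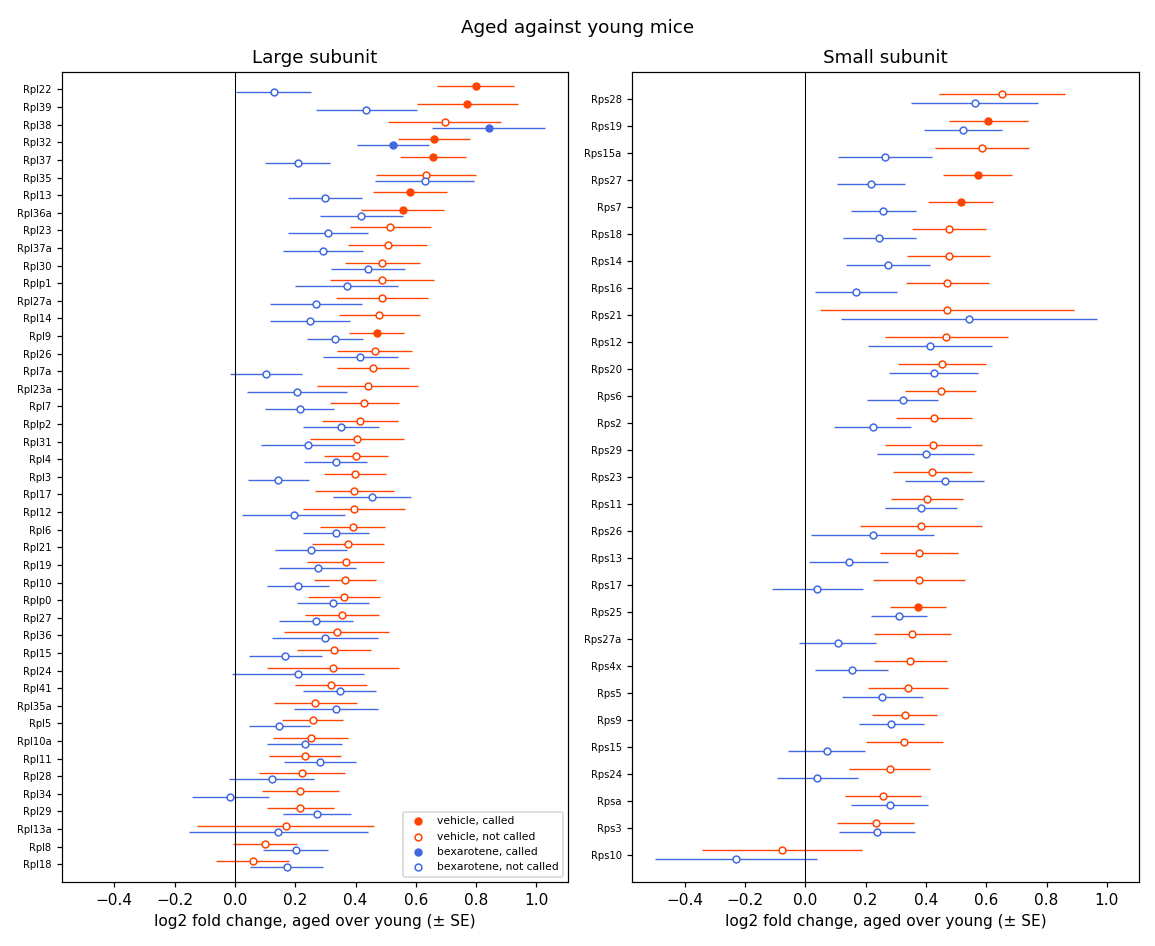
Log2 fold change of aged over young mice (x axis, with SE bars) for each of 74 members (y axis), under vehicle (orange) and bexarotene (blue), with filled points for members that passed the test. Nearly all points lie above 0, 11 are filled under vehicle and 2 under bexarotene.

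The members did not vary independently between libraries of a group. In young vehicle library 1 only 2 of 76 members lay above the group mean, and their median deviation was -0.21 on the log2 scale, while in young vehicle library 3 it was 73 of 76 and 0.13. In aged vehicle the counts were 11, 66 and 43 of 76. The count of calls moved with single libraries: it was 3 without young vehicle library 1 or without aged vehicle library 2, 6 without young vehicle library 2 or without aged vehicle library 3, and 1 without the libraries numbered 1 of every group. Rpl22, Rpl32 and Rpl37 passed in each of the 6 fits that left out 1 library of the comparison. A fit to these 2 groups alone called 2 members and DESeq2 called 33 (2.38% of all genes), and the median ran from 0.30 to 0.48 when 1 library was left out.

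The authors' deposited table of aged against young vehicle listed 15 of the 76 members among its 448 genes, all 15 higher in aged mice. In the authors' deposited table the log2 fold change was 0.51 for Rpl32, 0.45 for Rpl22 and 0.42 for Rpl37. Of its 15 members, 10 were also called here, which is 66.7% of those in the authors' deposited table and 76.9% of the 13 called here. The 3 called here alone were Rpl9, Rpl36a and Rps25, and the 5 in the authors' deposited table alone were Rpl3, Rpl4, Rpl7, Rpl10 and Rps6. The authors' deposited tables for bexarotene against vehicle in young mice, aged mice and aged mice with stroke listed 0 members.

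Between the age groups given bexarotene the difference had the same direction. Here 2 members passed and were higher in aged mice and 0 were lower, where 0.676% of all genes were higher and 0.283% lower. With the replicate number as a block, which paired these samples, 4 members passed. The median log2 fold change was 0.27 against -0.01 over all genes, 74 of 76 values were positive, and in 42 members all aged libraries lay above all young ones (8.95% of all genes). The 2 that passed were Rpl38, a small protein of the large subunit known for its part in the translation of Hox mRNAs, and Rpl32. Rpl38 had 8.32, 6.32 and 8.57 CPM in young and 12.6, 16.1 and 13.1 CPM in aged bexarotene libraries, with no overlap and a log2 fold change of 0.84 (SE 0.19, adjusted p = 0.0346). Rpl32 had 42.4, 39.6 and 43.9 CPM and 62.0, 68.5 and 50.5 CPM, with no overlap and a log2 fold change of 0.52 (SE 0.12, adjusted p = 0.0382). Without aged bexarotene library 3 only Rpl32 passed, and without any other 1 of these 6 libraries 0 members did.

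The vehicle and bexarotene age comparisons share no library. Rpl32 was called in both, which is 7.69% of the 13 called under vehicle and 50% of the 2 called under bexarotene. All 13 members called under vehicle had positive values under bexarotene, and in 11 of them the groups did not overlap there either. Across the 76 members the 2 sets of log2 fold changes had a Pearson correlation of 0.58, given as a description, since members of a library share its depth and scaling. The largest gap was at Rpl22, whose difference under bexarotene was 0.13, SE 0.13: young bexarotene libraries had 15.2, 15.9 and 16.2 CPM, above all young vehicle libraries, and aged bexarotene libraries had 17.2, 16.8 and 17.6 CPM. The test of the difference between the 2 age effects gave -0.67 (SE 0.18, adjusted p = 1) for Rpl22, -0.45 (SE 0.15, adjusted p = 1) for Rpl37 and -0.35 (SE 0.16, adjusted p = 1) for Rps27, the 3 with the lowest p. With edgeR 0 of 76 members passed that test and with DESeq2 0, while 3 and 2 had an unadjusted p under 0.05, and 0 of all 15528 genes passed with edgeR.

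**Figure D3:**
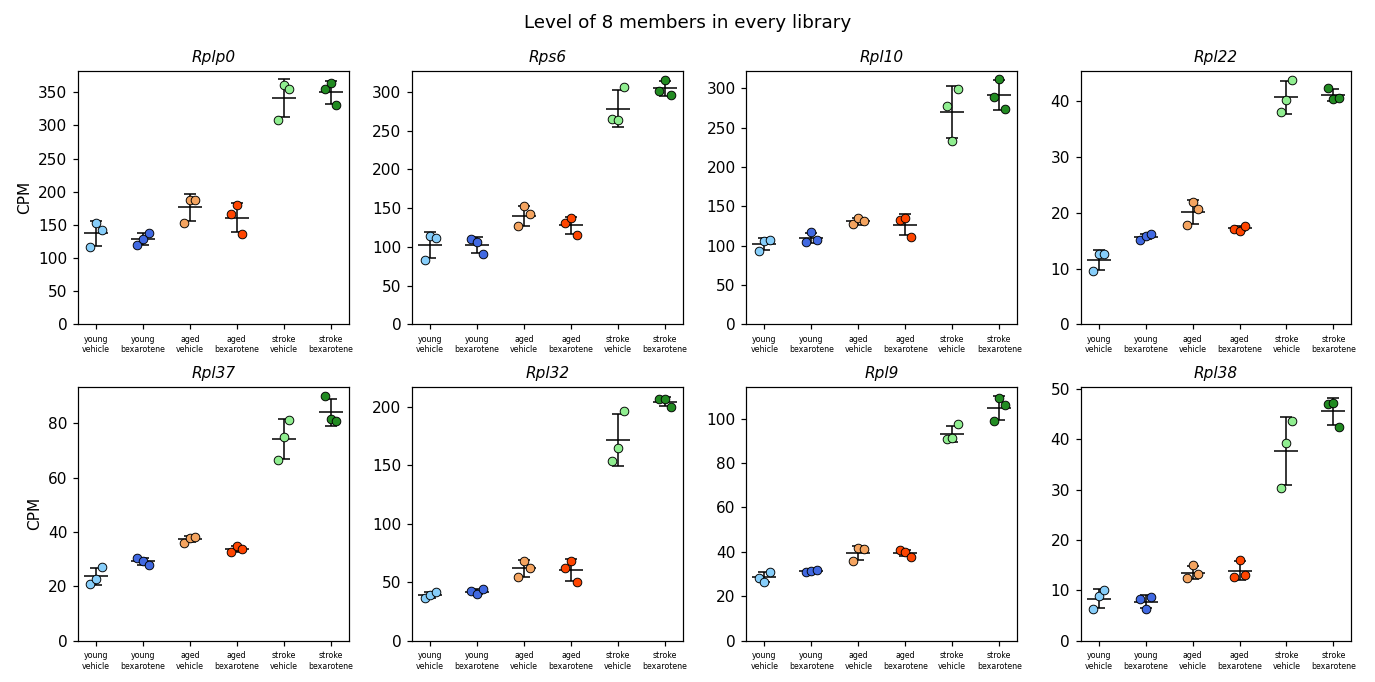
CPM (y axis, from 0) of 8 members in each of the 18 libraries (points), with the mean and SD of each group of 3. For Rplp0, Rps6 and Rpl10 the 3 aged vehicle libraries lie above the 3 young vehicle libraries, for Rpl22 the young bexarotene libraries lie above the young vehicle libraries, and in all 8 panels the stroke libraries are highest.

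Some marker lists also moved with age beside the members, and their part in the members' values was not tested. Summed monocyte markers were 362 to 435 CPM in young vehicle and 262 to 278 CPM in aged vehicle libraries, with 0 of 8 called and none at 0. Microglial markers summed to 49339 to 53286 CPM in aged vehicle libraries, below every young vehicle library, with 0 of 10 called. Neuronal markers, at a low level, summed to 2.86 to 4.19 CPM in young vehicle and 4.26 to 5.09 CPM in aged vehicle libraries. Of 8 markers of border macrophages, 3 were called lower in aged mice under vehicle and 3 under bexarotene. Over all genes tested, 0.438% were called lower with age under vehicle and 0.283% under bexarotene. F13a1 is in both the border macrophage and the monocyte list. Short genes moved in the same direction as the members under vehicle. The 2325 other genes with transcripts under 1000 bases had a median log2 fold change of 0.12 and 12650 longer genes -0.04. The 59 members under 1000 bases had 0.41 and the 17 longer members 0.40. With an offset for transcript length 8 members passed under vehicle and 1 under bexarotene.

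Bexarotene itself changed no member at the threshold. In young mice 0 of 76 passed, where 0.419% of all genes were higher and 0.0902% lower, and the median log2 fold change was 0.03. In aged mice without stroke 0 passed (0.238% and 0.0193% of all genes) and the median was -0.09, with 66 of 76 values negative. In aged mice with stroke 0 passed (0.0515% and 0.00644% of all genes) and the median was 0.15, with all 76 values positive. DESeq2 also called 0 in each of the 3, and 3, 1 and 2 members had an unadjusted edgeR p under 0.05. A p above the threshold does not show that the levels were the same.

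The members with the lowest p for bexarotene in young mice were Rpl22 at 0.45 (SE 0.13, adjusted p = 0.188), Rpl37 at 0.30 (SE 0.11, adjusted p = 0.39) and Rpl29, a basic protein of the large subunit, at -0.25 (SE 0.11, adjusted p = 0.549). In aged mice without stroke they were Rpl7a at -0.28 (SE 0.12, adjusted p = 0.716), Rpl37a at -0.24 (SE 0.13, adjusted p = 0.827) and Rpl22 at -0.22 (SE 0.12, adjusted p = 0.83). In aged mice with stroke they were Rps27 at 0.26 (SE 0.11, adjusted p = 0.676), Rpl32 at 0.25 (SE 0.11, adjusted p = 0.744) and Rps27a, which is made as a fusion with ubiquitin, at 0.25 (SE 0.12, adjusted p = 0.783). Summed marker levels lay apart between treatments too, and their part was not tested. Astrocyte markers were at 304 to 424 CPM in young vehicle and 584 to 909 CPM in young bexarotene libraries. In aged vehicle and aged bexarotene libraries they were at 337 to 485 and 495 to 729 CPM. Oligodendrocyte markers there were at 231 to 265 and 204 to 220 CPM, and neutrophil markers at 187 to 382 CPM and at 562 CPM or more. Between the stroke groups 2 lists lay apart, with 0 of 8 genes called in each. Choroid plexus markers summed to 939 to 3254 CPM in stroke vehicle and 143 to 728 CPM in stroke bexarotene libraries. With their level as a covariate the median of the members was 0.04 and 49 of 76 values were positive. That level did not overlap between the stroke groups, so its part and that of bexarotene cannot be told apart. Border macrophage markers summed to 1004 to 1040 CPM and 646 to 913 CPM, again without overlap, and their part in the members' values was not tested.

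Stroke went with a rise of nearly every member. Under vehicle 75 of 76 passed and were higher in aged mice with stroke than without, and 0 were lower, where 27.2% of all genes were higher and 21.1% lower. Under bexarotene all 76 passed and were higher (26.8% and 21.2% of all genes). The median log2 fold change was 1.15 under vehicle, a 2.22-fold difference, and 1.36 under bexarotene, 2.57-fold, against 0.02 and 0.00 over all genes. In all 76 members, in both comparisons, every stroke library lay above every library without stroke, a pattern found in 31.0% and 31.2% of all genes. The change was at least 2-fold in 52 members under vehicle and in 71 under bexarotene.

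Rpl9 had the lowest p in both. Its level was 36.0, 41.6 and 41.3 CPM in aged vehicle libraries and 91.0, 91.3 and 97.4 CPM in aged stroke vehicle libraries, and the log2 fold change was 1.24 (SE 0.09, adjusted p = 7.81e-09). Under bexarotene it was 40.8, 39.8 and 37.8 CPM without and 99.0, 109 and 106 CPM with stroke, with a log2 fold change of 1.41 (SE 0.09, adjusted p = 2.05e-09). The 3 libraries of each group lay close together, far from the other group.

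Rpsa, a small-subunit protein that was also described as a laminin receptor, had the largest change under vehicle. It rose from 48.4, 59.4 and 53.7 CPM to 167, 181 and 186 CPM, with a log2 fold change of 1.73 (SE 0.13, adjusted p = 8.71e-09), and under bexarotene from 46.9, 65.4 and 47.4 CPM to 182, 210.5 and 189.9 CPM, with 1.86 (SE 0.13, adjusted p = 3.91e-09). Rpl41, the shortest ribosomal protein, rose from 53.7, 57.8 and 55.2 CPM to 150.1, 160.4 and 189.6 CPM under vehicle, with 1.58 (SE 0.12, adjusted p = 1.13e-08). Neither gene has a pyrimidine run at its annotated start in the windows printed above. The others with the lowest p under vehicle were Rpl32 (1.48, SE 0.12), Rpl8 (1.28, SE 0.11) and Rps25 (1.09, SE 0.09), given as log2 fold changes, and under bexarotene Rpl41 (1.85, SE 0.12), Rpl32 (1.76, SE 0.12), Rps25 (1.30, SE 0.09) and Rps7 (1.46, SE 0.11).

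At the other end Rps27 changed least under vehicle, from 44.7, 51.6 and 43.6 CPM to 70.9, 66.8 and 75.5 CPM, with a log2 fold change of 0.61 (SE 0.11, adjusted p = 0.000167). Rpl10a (0.67, SE 0.12) and Rps4x (0.69, SE 0.12) followed. The 1 member that did not pass under vehicle was Rps21, at 1.54, 1.57 and 1.06 CPM without and 2.36, 2.74 and 2.94 CPM with stroke. The groups did not overlap, and the log2 fold change was 0.95 (SE 0.39, adjusted p = 0.0524) at this low depth.

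Rplp0 rose from 153, 188 and 188 CPM to 308, 361 and 354 CPM under vehicle, a log2 fold change of 0.95 (SE 0.12, adjusted p = 3.58e-06). Rps6 rose from 126, 152 and 142 CPM to 265, 263 and 306 CPM, with 0.99 (SE 0.12, adjusted p = 1.62e-06). Rpl10 rose from 127, 136 and 131 CPM to 278, 234 and 299 CPM, with 1.04 (SE 0.10, adjusted p = 2.15e-07). Rpl22 rose from 17.8, 21.9 and 20.7 CPM to 38.1, 40.3 and 43.8 CPM, with 1.02 (SE 0.12, adjusted p = 1.52e-06). For all 4 genes the groups did not overlap. Under bexarotene the stroke libraries of these genes had 356, 364 and 331, 302, 316 and 297, 289.7, 312 and 274 and 42.4, 40.5 and 40.7 CPM in that order.

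**Figure D4:**
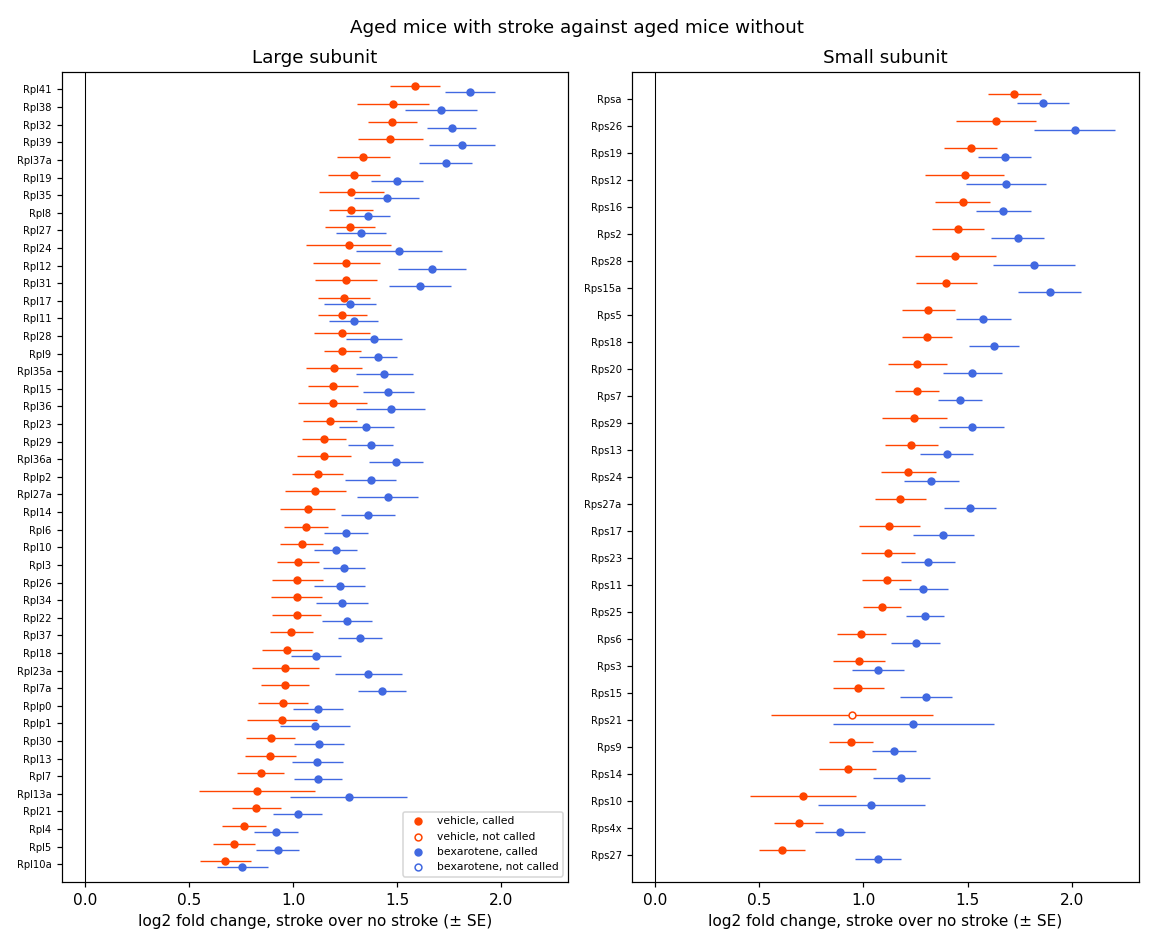
Log2 fold change of aged mice with stroke over aged mice without (x axis, with SE bars) for each of 74 members (y axis), under vehicle (orange) and bexarotene (blue), with filled points for members that passed the test. All points lie to the right of 0, and Rps21 under vehicle is the 1 open point.

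By role, the medians under vehicle were 1.04 for the 4 stalk and base proteins, 1.25 for the 10 around the exit tunnel and 1.21 for the 8 along the mRNA path. All of these passed, as did 75 of all 76 members, against 27.2% of all genes called higher. Rpl5 and Rpl11, which are incorporated together, differed in size, with 0.72, SE 0.10 and 1.24, SE 0.12. The median was 1.11 over the 46 large-subunit members and 1.22 over the 30 small-subunit members. Under bexarotene the medians by role were 1.25, 1.40 and 1.44 in the same order, and 1.36 and 1.43 for the large and small subunits.

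The 2 stroke comparisons share no library. All 75 members called under vehicle were called under bexarotene, which is 98.7% of the 76 called there, and the log2 fold changes had a Pearson correlation of 0.93 across the 76 members. That value is a description, with the members' shared libraries and depth behind it. The difference of the stroke effect between bexarotene and vehicle was positive in all 76 members, with a median of 0.23 on the log2 scale against 0.00 over all genes, and 0 passed the test with edgeR or with DESeq2, while 5 had an unadjusted p under 0.05 in each. The lowest p were those of Rps27 at 0.46 (SE 0.16, adjusted p = 1), Rpl7a at 0.47 (SE 0.16, adjusted p = 1) and Rps15a at 0.50 (SE 0.21, adjusted p = 1). With the choroid plexus covariate 65 of 76 were positive and the median was 0.11. This covariate did not overlap between the stroke groups, so its part and that of bexarotene cannot be told apart.

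Other measures moved with stroke in the same libraries. All 8 monocyte markers (Ly6c2, Ccr2, Plac8, Chil3, Vcan, F13a1, Fn1 and S100a4) were called higher, and their summed level was 262 to 278 CPM in aged vehicle and 3120 to 5000 CPM in stroke vehicle libraries, and 312 to 367 CPM and 2731 to 5201 CPM under bexarotene, with none at 0. Of 10 microglial markers 8 were called lower in each comparison, and their sum was 49339 to 53286 CPM without and 23474 to 24827 CPM with stroke under vehicle. Under vehicle 5 other lists also separated without overlap in their summed CPM. Neutrophil markers were at 187 to 382 without and 519 to 1745 CPM with stroke, border macrophage markers at 550.1 to 689 and 1004 to 1040 CPM, and T and NK cell markers at 1.45 to 2.69 and 4.94 to 15.3 CPM. F13a1 is in both the border macrophage and the monocyte list, so those sums are not independent. Astrocyte markers were at 337 to 485 and 121 to 161 CPM and B cell markers at 496 to 613 and 273 to 402 CPM. Of 14 genes that respond to tissue dissociation, 10 were called higher and 2 lower under vehicle. Over all genes tested, 27.2% were called higher and 21.1% lower there. Mitochondrial transcripts took 0.395% of counts in aged vehicle and 0.592% in stroke vehicle libraries. The part of these shifts in the members' rise was not tested.

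Transcript length moved with stroke as well. The 2325 other genes under 1000 bases had a median log2 fold change of 0.46 under vehicle and 0.50 under bexarotene, and the 12650 longer genes -0.05 and -0.07. Members under 1000 bases had 1.19 and 1.38, and the 17 longer members 1.06 and 1.27. With an offset for transcript length the members' median was 0.73 under vehicle, with 70 of 76 called, and 0.92 under bexarotene, with 72 called. The size of the rise therefore depended on that offset, and its direction did not, except that Rps27 under vehicle was then -0.14 and not called.

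A second fit asked how the members shared the reads of the set among themselves, with the summed count of the 76 as library size. With age under vehicle the composition barely moved: 1 member took a larger share and 2 a smaller one, where 1.11% of all genes were higher and 31.5% lower relative to the set. Rpl22 had 36.3, 39.5 and 37.5 of every 10000 member reads in young vehicle and 47.2, 50.7 and 50.6 in aged vehicle libraries, without overlap, with a log2 fold change of 0.39 (SE 0.12, adjusted p = 0.0236). Rpl8, a core protein next to the catalytic centre, had 142, 133 and 131 and 111, 114 and 102, and fell, with -0.31 (SE 0.09, adjusted p = 0.017). Rpl18 had 155, 161 and 169.8 and 141, 109.7 and 134, and fell, with -0.34 (SE 0.11, adjusted p = 0.0272). Without young vehicle library 1 none of these 3 passed, and without aged vehicle library 2 or 3 the call of Rpl22 was lost. Leaving out any library but young vehicle 1 gave 1 or 2 lower calls. Under bexarotene 0 members passed with edgeR (0.406% and 2.46% of all genes), and the lowest p was that of Rpl38 at 0.56 (SE 0.15, adjusted p = 0.0541). With many more genes past the threshold under vehicle, adjusted p-values lie closer to the raw ones there than under bexarotene. An unadjusted edgeR p under 0.05 was found for 7 members under vehicle and 6 under bexarotene. The counts of calls therefore do not show that the treatments differed.

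Stroke changed the composition more. Under vehicle 13 members took a larger and 8 a smaller share of the member reads, where 7.78% of all genes were higher and 66.2% lower relative to the set. With so many genes past the threshold, adjusted p-values lie close to the raw ones. Rpsa had 129, 137 and 131 of every 10000 member reads in aged vehicle and 207, 215 and 199 in stroke vehicle libraries, without overlap, with a log2 fold change of 0.65 (SE 0.09, adjusted p = 7.13e-06). Rpl41 had 143, 134 and 135 and 187, 191 and 202, with 0.50 (SE 0.09, adjusted p = 9.45e-05). Rps27 had 119, 119 and 106 and 88.3, 79.5 and 80.5, and fell, with -0.47 (SE 0.10, adjusted p = 0.00028). Both directions held in all 3 libraries of each group.

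The other members with the lowest p among those that gained share were Rps19 (0.44, SE 0.09), Rps2 (0.38, SE 0.09), Rpl32 (0.39, SE 0.09) and Rps16 (0.40, SE 0.10). Rps19 matures the head of the small subunit, and Rps2 lies along its mRNA path. Those that lost share included, beside Rps27, Rpl4 (-0.31, SE 0.07), Rpl5 (-0.37, SE 0.09), Rps4x (-0.39, SE 0.10) and Rpl10a (-0.42, SE 0.16). Rpl4 lines the exit tunnel and had 475, 495 and 485 of every 10000 member reads without and 404, 395 and 371 with stroke. All these values are log2 fold changes of the share within the set.

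Under bexarotene 16 members gained and 9 lost share (5.84% and 72.3% of all genes). Among those with the lowest p were Rpsa (0.57, SE 0.09), Rpl41 (0.54, SE 0.09) and Rpl32 (0.46, SE 0.09) upward, and Rpl4 (-0.38, SE 0.07) and Rps4x (-0.41, SE 0.10) downward. All 13 that gained under vehicle gained here too (81.2% of the 16), and 7 of the 8 that lost share did so here (87.5% of the 8 and 77.8% of the 9). The shared gains included Rpsa, Rpl41, Rps19, Rps2, Rpl32, Rps16, Rps26, Rpl39, Rpl38, Rpl37a, Rps15a and Rps18. The shared losses included Rps27, Rpl4, Rpl5, Rps4x, Rpl10a and Rpl21. Without stroke vehicle library 3 the gains under vehicle numbered 8. The ratio of large-subunit to small-subunit counts was 1.64 ± 0.0208 (SD, n = 3) in aged vehicle and 1.50 ± 0.00888 in stroke vehicle libraries, and 1.66 ± 0.0186 and 1.50 ± 0.0311 under bexarotene. All 6 stroke libraries lay below the 12 others, at 1.48 to 1.54.

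**Figure D5:**
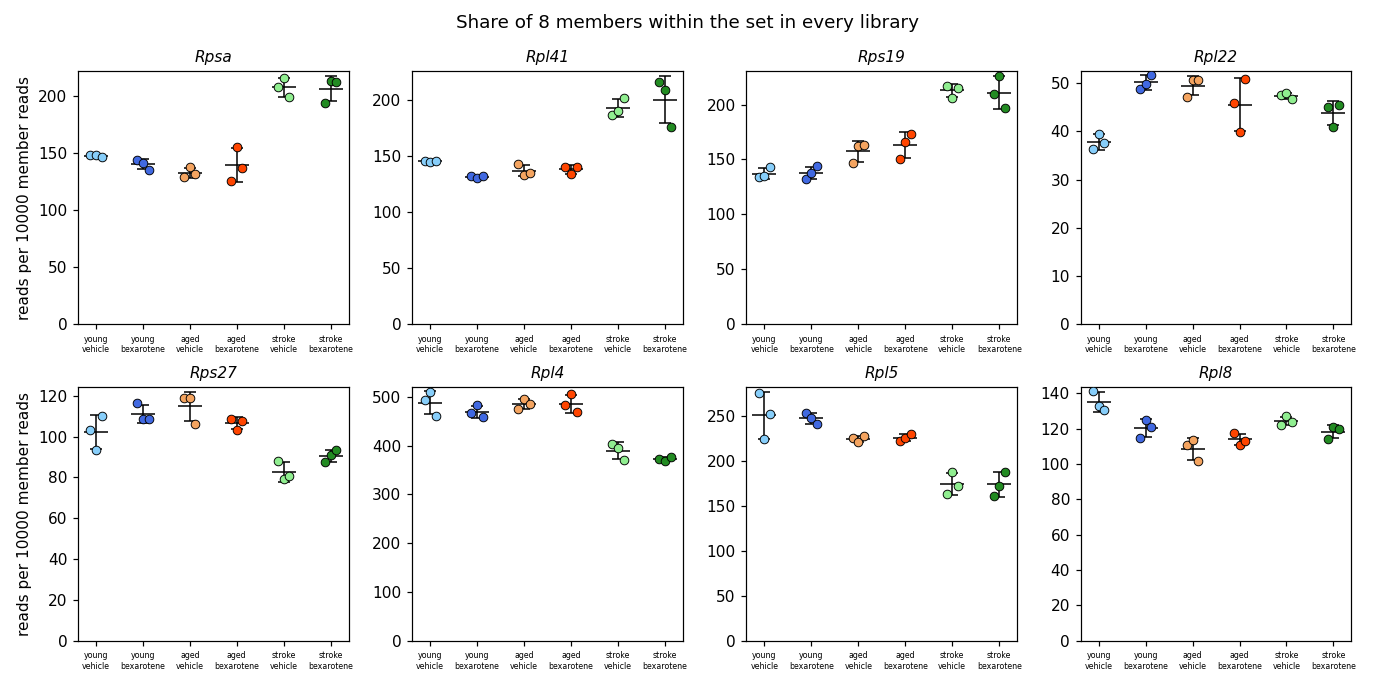
Reads per 10000 member reads (y axis, from 0) for 8 members in each of the 18 libraries (points), with the mean and SD of each group of 3. Rpsa, Rpl41 and Rps19 are higher, and Rps27, Rpl4 and Rpl5 lower, in all 6 stroke libraries than in the aged libraries without stroke, while Rpl22 and Rpl8 differ between young and aged vehicle libraries.

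Grouped by start-site sequence, the members had medians that lay close together with stroke, and no test was made. Under vehicle the 29 members with a pyrimidine run at the annotated start had a median log2 fold change of 1.12, with 28 called, the 27 without had 1.23, with 27 called, and the 20 with no window had 1.14, with 20 called. Under bexarotene the medians were 1.37, 1.35 and 1.36. With age under vehicle the medians were 0.40, 0.46 and 0.41, while 1 of the 29 with a run, 9 of the 27 without and 3 of the 20 with no window were called. Over all genes tested, 1.26% were called higher with age and 27.2% with stroke, each under vehicle. The split of the age calls by run was noticed after the values were seen and was not tested.

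The ribosomal proteins outside the name rule were counted apart. With age none of Rack1, Rps3a1 and Fau was called, and with stroke under vehicle all 3 were: Rack1, a signalling scaffold on the small subunit (1.34, SE 0.12), Rps3a1 (1.03, SE 0.12) and Fau, made as a fusion with a ubiquitin-like protein (1.04, SE 0.15). Paralogues, which replace a member in some tissues, were counted as well. Of 7 tested, 0 were called with age and 3 rose and 1 fell with stroke under vehicle. Over all genes tested, 27.2% were called higher and 21.1% lower with stroke under vehicle. With age under vehicle 1.26% were higher and 0.438% lower. The 7 paralogues are too few to set apart from those shares. Rps27l rose by 1.34 (SE 0.11) and Rpl22l1 by 1.10 (SE 0.25), and Rpl7l1 fell, at -0.41 (SE 0.10), all as log2 fold changes. Rps27l is a target of p53, and its partner Rps27 changed least of all 76 members under vehicle.

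Genes of the translation apparatus beyond the ribosome were counted by lists chosen with earlier results known. Of 19 translation factors whose mRNAs also carry the tract, 1 was called with age under vehicle, the poly(A)-binding protein Pabpc1 (0.56, SE 0.10), and 0 under bexarotene. With stroke all 19 were called higher in both comparisons, with medians of 0.88 and 1.11. The lowest p under vehicle were those of Tpt1, a small protein linked to growth (1.52, SE 0.12), the elongation factor subunit Eef1g (1.22, SE 0.10) and the RNA-binding protein Hnrnpa1 (1.47, SE 0.15). Over all genes tested, the shares called with stroke were 27.2% higher and 21.1% lower under vehicle, and 26.8% and 21.2% under bexarotene. Of 26 initiation factors 15 rose and 2 fell with stroke under vehicle, and 15 and 3 under bexarotene, with 0 called in either age comparison. They were led under vehicle by Eif5a (0.93, SE 0.12), Eif2s1 (0.72, SE 0.10) and Eif3a (0.70, SE 0.10).

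Genes of the machinery that builds ribosomes are read against the share of all genes called with stroke, 27.2% higher and 21.1% lower under vehicle and 26.8% and 21.2% under bexarotene. Of 31 genes of ribosome biogenesis 11 rose and 0 fell with stroke under vehicle, with a median of 0.27, and 6 rose and 1 fell under bexarotene. The leading ones were nucleolin, Ncl (0.74, SE 0.10), Nhp2 of the small nucleolar particles (0.91, SE 0.18) and the helicase Ddx21 (0.62, SE 0.14). Of 12 tested genes of RNA polymerase I, which makes ribosomal RNA, only Polr1d was called under vehicle (0.50, SE 0.11), and 1 rose and 3 fell under bexarotene. Of 17 tested genes of mTORC1 and regulators of the tract, 5 rose and 3 fell under vehicle, and 3 rose and 2 fell under bexarotene, so that under vehicle this list stood near those shares. Rptor, the scaffold of mTORC1, fell, at -1.12 (SE 0.13), while Eif4ebp1, an inhibitor of initiation, rose by 0.99 (SE 0.15) and Larp1 by 0.53 (SE 0.09). In the age comparisons 0 genes of these 3 lists were called.

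Mitochondrial ribosomal proteins serve a separate ribosome inside mitochondria. Of 74 tested genes named Mrpl or Mrps with a number alone, 0 were called with age in either comparison, and the medians were 0.04 and 0.06. With stroke 35 rose and 3 fell under vehicle, with a median of 0.29, and 37 rose and 2 fell under bexarotene, with a median of 0.35. Of all genes tested, 27.2% were called higher and 21.1% lower under vehicle, and 26.8% and 21.2% under bexarotene. Several lay within the range of the cytosolic members under vehicle, 0.61 to 1.73. Among them were Mrpl33 (1.58, SE 0.14), Mrpl30 (1.50, SE 0.17), Mrpl54 (1.45, SE 0.19), Mrpl20 (0.99, SE 0.14) and Mrpl52 (0.96, SE 0.17). Mrpl49 (-0.61, SE 0.14) fell. The list leaves out Mrps18a, Mrps18b and Mrps18c, which had 0.34 (SE 0.12), 0.04 (SE 0.26) and 0.80 (SE 0.15) with stroke under vehicle, the first and the last called higher. No test of the difference between these lists was made.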

How the data were processed

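The authors deposited whole-number counts per gene for 18 libraries, not normalized, under Ensembl identifiers. The submitters' processing notes name the build GRCm39 and the tools STAR 2.7.10a, Trimmomatic 0.40, R 4.4.2 and GATK. The sources used here do not give their roles, the annotation, the counter or the use of strand, so reads of overlapping, antisense and near-identical genes cannot be separated. Tables of comparisons that the authors deposited came with a mean of normalized counts called baseMean (a signal), log2 fold changes and their errors, and p-values and adjusted p-values. These tables hold only genes under an adjusted p of 0.05, and the tool behind them is not stated. Their errors do not give back their p-values, so only the deposited log2 fold changes are printed.

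Symbols and transcript lengths (shortest principal transcript) came from GENCODE M21 of the earlier build GRCm38, which named 52029 of 57010 rows. No column of sample values was left out. Total counts per library were 7582511 to 29359943. A floor of 3 counts was 0.102 to 0.396 CPM, and such floors cover counting error only.

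Counts were fitted with edgeR 4.0.16 in R 4.3.3 (limma 3.58.1): filterByExpr left 15528 genes, TMM factors were 0.937 to 1.05, and 1 robust quasi-likelihood model covered all 18 libraries, leaving 12 residual degrees of freedom. Genes with a Benjamini-Hochberg adjusted p under 0.05 over all genes tested were called, and all adjusted p-values in the report are from this test. CPM are scaled by library total and TMM factor. The second fit used the summed member count as library size. The fit was tested on simulated counts. DESeq2 1.42.0 and limma voom were alternatives, as were other scalings, filters, offsets and left-out libraries.

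The members, lists and tests were chosen with earlier results of these data known. Named were, per comparison, up to 6 called members of each direction with the lowest p, or the 3 with the lowest p where none was called. Every-library values were given for the 3 lowest p in the age and stroke comparisons under vehicle and in both composition fits, and for Rplp0, Rps6, Rpl10 and Rpl22. The 3 highest and lowest members per length, members called in both of 2 comparisons and up to 3 called genes of each list were named too. Libraries of a group differed by more than sampling noise (chi-square per degree of freedom 6.19 to 40.3). Same-numbered libraries deviated together in all 3 pairs for age under bexarotene (r 0.11 to 0.30) and for bexarotene in young mice (r 0.14 to 0.28). With stroke all 3 pairs were positive too, at r 0.03 to 0.21 under vehicle and 0.03 to 0.13 under bexarotene. Elsewhere the lowest r was negative: -0.01 for age under vehicle, -0.06 for bexarotene in aged mice and -0.11 for bexarotene after stroke. Some genes are not reported here, and plots of all members leave out 2.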

Additional observations from a re-analysis of the deposited data

How the results depend on the processing

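The count of members higher in aged mice under vehicle, 13, was 28 with library totals alone, 26 with no filter on low counts, 28 with at least 10 CPM in 3 libraries, 33 with DESeq2, 25 with the choroid plexus covariate, 8 with the transcript length offset, 2 in a fit to these 2 groups alone and 1 without the libraries numbered 1. With a replicate block it was 23. The deviations of same-numbered libraries of these 2 groups had r of 0.39, 0.23 and -0.01, and the labels do not say what such libraries share. Leaving out 1 library gave 3 to 19. The causes were not tested. Under bexarotene the count, 2, was 4 with library totals alone, 6 with no filter, 9 with DESeq2, 0 with limma voom, 0 in the fit to 2 groups, 4 with the replicate block, 1 with the length offset with or without the block, 0 without the libraries numbered 1 and 6 with the choroid plexus covariate. Leaving out 1 library gave 0 to 1, and a median of 0.19 to 0.34. With the length offset the median was 0.17 there (0.17 with the block), 0.73 (0.73) with stroke under vehicle and 0.92 (0.92) with stroke under bexarotene. In the composition of the set, leaving out 1 library gave 0 to 1 higher and 0 to 2 lower with age under vehicle, and 8 to 12 higher with stroke under vehicle. The replicate block moved no other count of calls by over 1.5 times. The other counts and medians stayed within 1.5 times or within the spread between libraries in all the alternatives run, and of the called members only Rps27 changed sign, with stroke under vehicle (-0.14 with the length offset, with or without the block). Each group had 3 libraries, and low counts limit Rps21, Rps10 and Rpl13a.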
